A study of Mus musculus with 12 samples.

Results

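Gene expression was compared between mutant and control cells of the population titled low expression, sorted from newborn mouse kidney. The comparison holds 8 of the series' 12 libraries, the 4 titled mutant low expression and the 4 titled control low expression, and these were chosen by their titles. In all 12, Six2-expressing cells carrying the R26R-tdTomato construct were isolated by flow cytometry at postnatal day 0, and the labels call them fetal kidney cells. The labels give no strain, no allele, no Cre driver and no deleted interval. The series title names Eed, a Polycomb group member, but no sample label does, so "mutant" is used here as the titles use it. What was high or low is not explained by the titles. Separate animals are not stated for the samples, so how far the p-values measure spread between animals is not known.

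Six2 marks the mesenchymal progenitors that cap the branching ureteric bud and give rise to the epithelium of the nephron, from podocyte to distal tubule. These progenitors either renew or commit, passing through a renal vesicle in which Wnt and Notch signalling pattern the segments. Eed is the subunit of Polycomb repressive complex 2 (PRC2) that binds trimethylated lysine on histone H3, and PRC2 keeps developmental regulators of other lineages, among them Hox genes and the Cdkn2a locus, silent. Many of its target genes have promoters rich in the dinucleotide CG.

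Promoters of the most changed genes are shown for their CG content. Sequences are RefSeq's, on GRCm38.p6, and cover the 250 bases before the start, with each CG in capitals. The first 3 belong to genes with the largest rises in mutant low cells, the regulators Nkx2-1 (chr12:56536909-56537158, minus strand, 9 CG), Hoxa13 (chr6:52260881-52261130, minus strand, 35 CG) and Hoxd13 (chr2:74667975-74668224, plus strand, 31 CG).
Nkx2-1: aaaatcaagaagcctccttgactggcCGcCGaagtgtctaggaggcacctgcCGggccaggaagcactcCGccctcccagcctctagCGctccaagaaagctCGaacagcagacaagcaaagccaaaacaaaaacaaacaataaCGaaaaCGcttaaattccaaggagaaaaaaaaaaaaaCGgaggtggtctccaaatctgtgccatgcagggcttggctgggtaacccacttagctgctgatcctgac
Hoxa13: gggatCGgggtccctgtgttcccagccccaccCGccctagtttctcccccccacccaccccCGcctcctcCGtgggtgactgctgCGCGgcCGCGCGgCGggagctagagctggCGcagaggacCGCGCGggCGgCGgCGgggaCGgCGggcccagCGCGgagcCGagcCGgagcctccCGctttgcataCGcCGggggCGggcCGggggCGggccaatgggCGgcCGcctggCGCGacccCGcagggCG
Hoxd13: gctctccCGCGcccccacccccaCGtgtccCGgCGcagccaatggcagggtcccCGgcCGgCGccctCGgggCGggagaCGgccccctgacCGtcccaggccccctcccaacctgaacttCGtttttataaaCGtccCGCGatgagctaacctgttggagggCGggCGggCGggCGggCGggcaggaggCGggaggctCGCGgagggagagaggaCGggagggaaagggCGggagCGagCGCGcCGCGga

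The next 3 belong to genes among the largest falls, all of the mature proximal tubule. They are the organic ion transporters Slc22a13 (chr9:119209106-119209355, minus strand, 0 CG) and Slc22a6 (chr19:8617746-8617995, plus strand, 0 CG) and the gluconeogenic enzyme Fbp1 (chr13:62888283-62888532, minus strand, 5 CG).
Slc22a13: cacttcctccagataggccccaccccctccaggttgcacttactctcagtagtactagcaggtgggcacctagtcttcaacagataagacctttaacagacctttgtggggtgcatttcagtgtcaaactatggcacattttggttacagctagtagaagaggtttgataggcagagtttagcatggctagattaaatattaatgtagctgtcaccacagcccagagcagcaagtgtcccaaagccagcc
Slc22a6: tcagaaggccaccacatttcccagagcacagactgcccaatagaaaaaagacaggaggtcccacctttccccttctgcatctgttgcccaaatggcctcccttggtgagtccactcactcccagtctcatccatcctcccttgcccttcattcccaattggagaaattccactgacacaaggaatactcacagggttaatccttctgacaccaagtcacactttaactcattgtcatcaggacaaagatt
Fbp1: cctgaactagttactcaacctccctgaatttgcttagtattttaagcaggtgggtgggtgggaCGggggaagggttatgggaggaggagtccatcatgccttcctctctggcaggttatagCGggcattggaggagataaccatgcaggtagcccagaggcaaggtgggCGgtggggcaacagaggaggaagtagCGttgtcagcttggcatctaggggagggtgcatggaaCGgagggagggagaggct

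Over all genes tested, 10511 of 13505 matched the promoter table, and their 13461 promoters had a median of 15 CG (quartiles 8 and 23). Genes called higher in mutant low cells had the same median of 15 CG (479 of 657 genes, 629 promoters). Genes called lower had a median of 6 CG (319 of 435 genes, 412 promoters, quartiles 3 and 15). The called genes of the proximal tubule list stood lowest, with a median of 3 CG in 39 promoters of 32 genes. These medians are a description of the promoters that matched, and nothing was tested on them.

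Per locus, a sum of the overlapping transcripts of one strand, 13749 loci were tested. In mutant low cells 663 were called higher (4.82% of the loci tested) and 441 were called lower (3.21%), 8.03% in both directions together, at an adjusted p under 0.05 in edgeR's quasi-likelihood test with Benjamini-Hochberg adjustment. Each list count below is to be read against these shares. The changes were large in both directions. The median log2 fold change was 1.75 among loci called higher and -1.78 among those called lower, against -0.06 over all loci tested. At least 2-fold changes (1 on the log2 scale) made up 595 of the rises and 367 of the falls. Regulators of other organs that were near 0 in control low cells and genes of committing nephrons were among the rises, and progenitor and mature tubule genes among the falls. Gene names were assigned by position, and 1092 of the 1104 called loci carry one.

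The 8 libraries held 5948488 to 12365078 fragments. Chromosome M took 0.494% to 1.96% of the fragments of a low library, and chromosome Y had 934 to 1659 fragments in 2 of 4 control low and 3 of 4 mutant low libraries and at most 2 in the others. Neither group was therefore made only of repeats of the same sample, but the number of animals is not stated. The sample descriptions carry running numbers that the labels do not explain. Within the libraries numbered up to 7 (2 against 2), 726 loci were called, and within those numbered above 7 (2 against 2), 855 were called. Levels below are fragments scaled to library size (CPM) and are listed for control low libraries 1 to 4 and then mutant low libraries 1 to 4.

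Eed itself was lower in all 4 mutant low libraries without passing the test. Its level was 14.4, 13.1, 15.4 and 13.4 CPM in control low and 7.27, 11.1, 5.44 and 9.91 CPM in mutant low cells (chr7:97103163-97129486, mm9). The ranges were apart, the log2 fold change was -0.74 (SE 0.26), and the adjusted p was 0.107. The value is a sum over the whole gene, and the deleted part is not given in the labels, so it does not check them closely. Of all loci tested, 6.69% had lower values in all 4 mutant low than in all 4 control low libraries.

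The other core subunits of PRC2 showed no call. The methyltransferase Ezh2 stood at 204, 201, 161 and 145 CPM in control low and at 165, 229, 155 and 154 CPM in mutant low cells, and these ranges overlapped (adjusted p = 0.977). The subunit Suz12 had a log2 fold change of 0.38 (adjusted p = 0.431). Rbbp4, like Eed, was lower with ranges apart and did not pass the test. It stood at 282, 222, 204 and 175 CPM in control low and at 156, 163, 118 and 161 CPM in mutant low cells (log2 fold change -0.56, adjusted p = 0.105). Phf19, a Polycomb-like accessory subunit, fell from 26.3, 33.0, 25.8 and 20.9 CPM to 11.0, 12.5, 3.56 and 7.88 CPM (log2 fold change -1.61, SE 0.38, adjusted p = 0.0146). Without mutant low library 4 its adjusted p was 0.0522. The accessory subunit Jarid2 held 207 to 296 CPM in the mutant low libraries, while each of the 4 control low libraries listed it at 0. A failed estimate would also give that 0, so no fold is given, although the locus is the list's 1 call in the higher direction. None of 19 subunits of PRC1, the second Polycomb complex, was called by edgeR, with 5 higher and 1 lower at an unadjusted p under 0.05. DESeq2 called 2 of them higher, limma-voom none, and edgeR 3 with the description number class as a covariate and 1 without mutant low library 2 or 3.

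The largest rises were mostly transcription factors of other organs. Ranked by fold among genes with ranges apart and a mutant low mean of 5 CPM or more, the first 15 included Nkx2-1, Hoxa13, Hoxd13, Barx1, Vax2, Mab21l1, Hoxc13, En2, Pax6, Prss16, Bcl11a, Sox2, Fndc3c1 and Twist1. In 13 of the 15 the mean in control low cells was under 0.5 CPM. All 15 were picked by these values, which are given as a description.

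Nkx2-1, a determinant of lung, thyroid and ventral forebrain, stood at 0.117, 0.136, 0 and 0 CPM in control low and at 71.6, 28.0, 54.1 and 47.3 CPM in mutant low cells (chr12:57632923-57637895, mm9). Its fold rested on few control fragments, with a fragment ratio of 957 (95% counting interval 265 to 7909) and an adjusted p of 1.23e-06. En2, which patterns midbrain and hindbrain, rose from 0.117, 0.272, 0.324 and 0.246 CPM to 34.1, 30.0, 39.1 and 42.9 CPM (log2 fold change 7.16, SE 0.37, adjusted p = 4.42e-08). Every mutant low library was therefore far above every control low library for both genes. Of all loci tested, 7.46% had higher values in all 4 mutant low than in all 4 control low libraries.

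Mab21l1, a gene of eye and craniofacial development, rose from 0.351, 0.272, 0.216 and 0.246 CPM to 43.0, 52.0, 45.9 and 37.7 CPM (log2 fold change 7.30, SE 0.37, adjusted p = 4.33e-08). Pax6, the eye and forebrain regulator, went from 0, 0.136, 0.432 and 0.246 CPM to 9.93, 8.69, 18.9 and 18.4 CPM (log2 fold change 5.95, adjusted p = 1.62e-05). Twist1, a mesenchymal regulator, went from 1.05, 0.136, 0.756 and 0.410 CPM to 15.8, 11.6, 25.9 and 27.0 CPM (log2 fold change 5.05, adjusted p = 1.76e-05). Levels among the mutant low libraries varied by less than 3-fold for each of these 3 genes. The Sox2 locus overlaps the non-coding Sox2ot, whose reads cannot be told apart from those of Sox2.

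**Figure D1:**
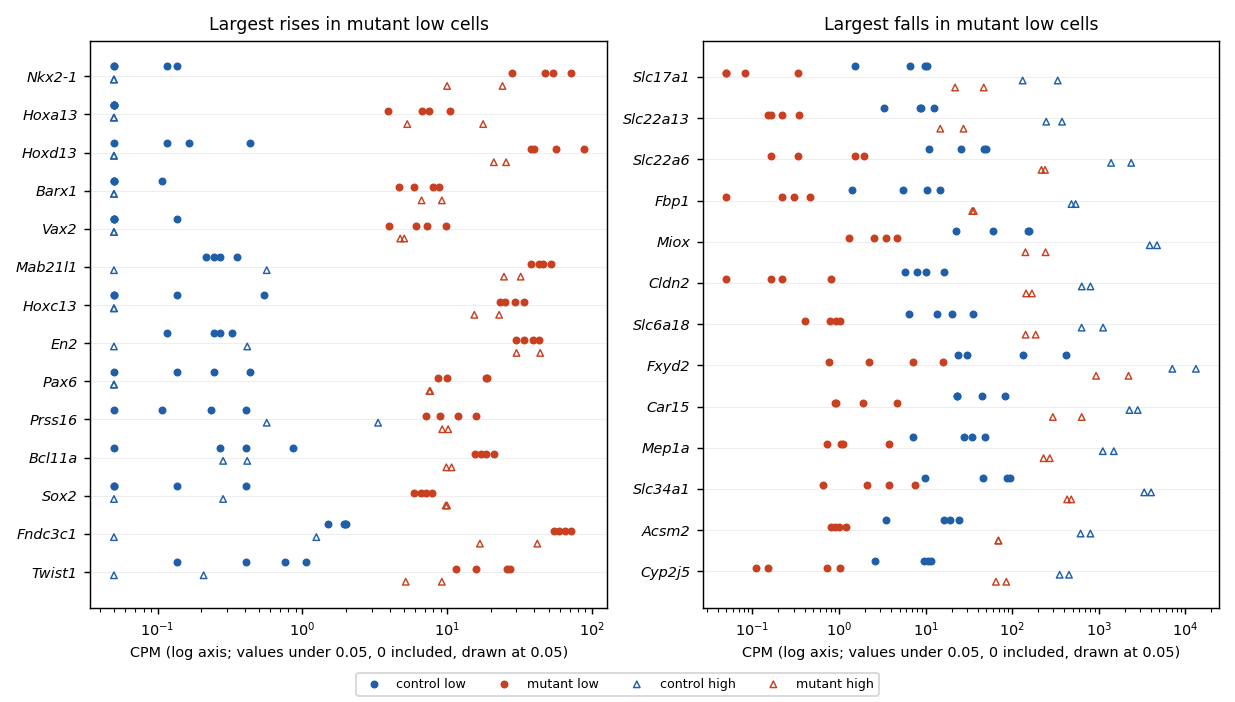
CPM in each library (log axis, values under 0.05 drawn at 0.05) of genes among the 15 largest rises and 15 largest falls, with filled circles for low and open triangles for high cells, blue for control and red for mutant. The mutant low points lie right of all control low points for the rises and left of them for the falls, and the control high points of the falls lie above 100 CPM.

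A list of 118 developmental regulators of other tissues was examined as a whole. Of 117 with a locus, 50 had enough reads to be tested, and a member silent in control cells could enter only through a rise, so the count of calls among them supports nothing. The 67 untested members had means of at most 0.988 CPM in control low and mutant low cells. Of 15 members with a mean of at least 1 CPM in a control group, 8 were called higher and 0 lower. Six3 and Uncx, regulators of forebrain and of somite and kidney mesenchyme, were already on in control low cells and showed no call, at means of 367 and 59.5 CPM in control low against 264 and 54.9 CPM in mutant low cells (adjusted p = 0.458 and 0.869, named after their values were seen).

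All 4 tested genes of paralogue group 13, which specify the hindmost body and the digits, rose. Their means in control low cells were at most 0.178 CPM. A gene silent in control cells could be tested only through a rise, so their count supports nothing. Of 23 Hox genes with a mean of at least 1 CPM in a control group, 0 were called higher and 2 lower. Of the 23 tested genes of groups 2 to 11, 0 were called higher and 2 were called lower, with a median log2 fold change of -0.54. These groupings were made after the values were seen.

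Hoxa13 had no fragment in any control low library and stood at 10.5, 7.47, 3.89 and 6.74 CPM in mutant low cells, at least 87.9-fold higher against a floor of 3 fragments over the group (adjusted p = 0.000203). Hoxd13 went from 0.117, 0, 0.432 and 0.164 CPM to 38.0, 39.8, 56.5 and 87.2 CPM (chr2:74506366-74509655, mm9), a log2 fold change of 8.11 (SE 0.51, adjusted p = 7.76e-07). Hoxc13 went from 0, 0.136, 0.540 and 0 CPM to 23.2, 25.1, 29.2 and 33.9 CPM (adjusted p = 6.99e-06). All 3 were thus near 0 in every control library and present in every mutant low library.

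Hoxb13 stayed at lower levels, with no fragment in control low cells and 1.04, 1.52, 0.333 and 0.162 CPM in mutant low cells, at least 8.18-fold higher, and its adjusted p of 0.0245 became 0.0605 without mutant low library 1. Hoxd1 rose from 0.351, 0.679, 0.432 and 0.821 CPM to 2.65, 1.52, 1.89 and 3.49 CPM (log2 fold change 2.04, adjusted p = 0.00871). Hoxa10, abundant in control low cells, went from 129, 120, 114 and 105 CPM to 78.5, 87.8, 43.2 and 65.2 CPM (log2 fold change -0.77, adjusted p = 0.0348), and Hoxc6 had a log2 fold change of -1.09 (adjusted p = 0.0293). Leaving out any of 10 libraries ended the Hoxa10 call (adjusted p up to 0.102), and leaving out control low 1, 2 or 3 or mutant low 1, 3 or 4 ended the Hoxc6 call (up to 0.111).

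**Figure D2:**
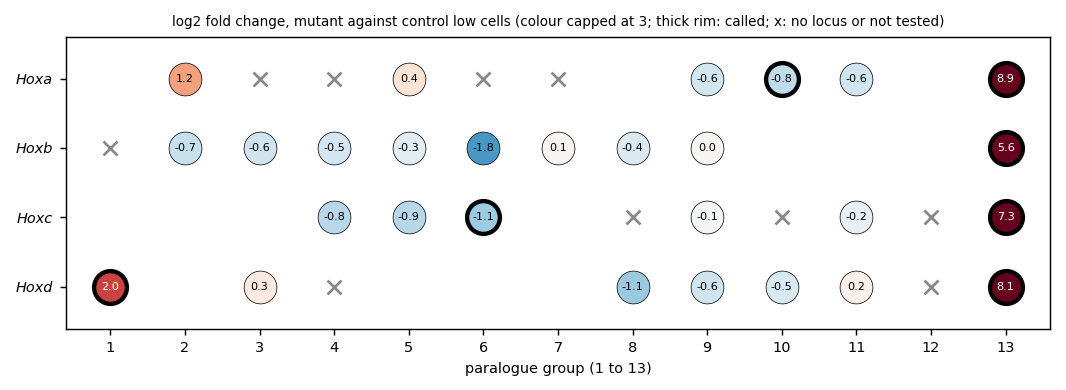
Log2 fold change of Hox genes in mutant against control low cells, by cluster (rows) and paralogue group (columns), with colour capped at 3, a thick rim on called genes and a cross where no locus was found or tested. Group 13 is dark red in all 4 clusters, and most of groups 2 to 11 are pale blue.

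Cell cycle inhibitors of the Cdkn2 locus, a classical PRC2 target, appeared in mutant low cells. Cdkn2a had no fragment in control low cells and stood at 5.31, 5.64, 2.00 and 1.06 CPM in mutant low cells, at least 38.8-fold higher (chr4:88920376-88940523, mm9, adjusted p = 0.00166). Its neighbour Cdkn2b rose from 0.234, 0.408, 0.324 and 0 CPM to 4.62, 2.59, 7.44 and 5.60 CPM (log2 fold change 4.44, SE 0.54, adjusted p = 0.000134). Cdkn1c, an imprinted inhibitor, rose from 124, 120, 69.0 and 78.7 CPM to 344, 312, 191 and 224 CPM (log2 fold change 1.45, adjusted p = 0.00401). These were the 3 calls among 6 inhibitors tested, none being lower. Cdkn2a, with no fragment in any control library, could be tested only through a rise. Among 5 inhibitors with a mean of at least 1 CPM in a control group, 2 were called higher and 0 lower. Their median log2 fold change was 0.05, and of all loci tested 4.82% were called higher.

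None of 30 proliferation genes was called by edgeR. Their median log2 fold change was 0.39, above the -0.06 of all loci, and 28 of 30 lay above 0, with 5 higher at an unadjusted p under 0.05. DESeq2 called 4 higher and limma-voom 0. Other edgeR fits called up to 5 higher, that number with the description number class as a covariate, and 2 without mutant low library 1 or 2. Mki67, an antigen of cycling cells, stood at 20.2, 27.6, 55.8 and 52.9 CPM in control low and 42.2, 48.2, 52.5 and 60.01 CPM in mutant low cells, with overlapping ranges (adjusted p = 0.537). Of 18 genes induced by p53, 8 were called higher and 0 lower, against 4.82% and 3.21% of all loci tested. The count was 5 without control low library 1, 2 or 3 or mutant low library 1 or 4. Pmaip1, which encodes the pro-apoptotic protein Noxa, rose from 0.702, 0.408, 0.324 and 1.64 CPM to 9.01, 11.7, 20.1 and 15.02 CPM (log2 fold change 4.08, SE 0.44, adjusted p = 4.80e-05). Ccng1 and Sesn2, further targets, rose by 1.29 and 1.18 on the log2 scale. Mdm2, which encodes the p53 antagonist and is itself a target, did not move beyond its spread (log2 fold change 0.10, adjusted p = 0.827).

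Progenitor genes moved in both directions, with Six2 and Cited1 among those that fell. Of 29 nephron progenitor genes tested, 6 were called lower and 4 higher, and their median log2 fold change was -0.57. Among 27 with a mean of at least 1 CPM in a control group, 6 were called lower and 2 higher. Six2, the transcription factor that keeps progenitors undifferentiated, stood at 1967, 1587, 1360 and 1897 CPM in control low and at 693, 743, 775 and 960 CPM in mutant low cells (chr17:86083607-86087594, mm9). All 4 mutant libraries were below all 4 controls, at a log2 fold change of -1.10 (SE 0.31, adjusted p = 0.0397). This call was lost on leaving out control low 1, 2 or 4, any mutant low or either mutant high library (adjusted p 0.0615 to 0.111). Cited1, a marker of the most naive progenitors, fell as well, from 35.0, 31.0, 21.4 and 19.4 CPM to 5.20, 6.55, 1.22 and 2.76 CPM (log2 fold change -2.78, SE 0.41, adjusted p = 0.000529).

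Fgf20, a niche signal that maintains progenitors, fell from 30.5, 22.8, 22.9 and 16.99 CPM to 3.46, 8.23, 2.67 and 4.63 CPM (log2 fold change -2.31, adjusted p = 0.00356). Crym, a thyroid hormone binding protein, fell from 101, 72.2, 56.6 and 85.8 CPM to 20.7, 30.0, 5.78 and 16.4 CPM (log2 fold change -2.12, adjusted p = 0.00247). Traf1, an adaptor of tumour necrosis factor receptors, had a log2 fold change of -2.19 (adjusted p = 0.000137). Eya1, the cofactor of Six2, went from 937, 733, 621 and 848 CPM to 369, 377, 352 and 397 CPM without passing the test (log2 fold change -1.07, adjusted p = 0.133).

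Against this direction, Fgf9, the partner signal of Fgf20, rose from 9.82, 14.9, 10.8 and 10.3 CPM to 19.97, 30.8, 24.3 and 25.2 CPM (log2 fold change 1.13, adjusted p = 0.00299). Lin28b, an RNA-binding protein of early progenitors that blocks the maturation of let-7 microRNAs, rose from 0, 0.679, 1.08 and 0 CPM to 6.46, 5.03, 5.33 and 6.98 CPM (log2 fold change 3.80, adjusted p = 0.00311). Tmem100, a membrane protein, was also called higher, with a log2 fold change of 1.92. The list therefore did not move as 1 block.

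Genes of committing nephrons were higher. Of 31 tested, 18 were called higher and 0 lower, with a median log2 fold change of 1.33, and 12 were called higher without control low library 1. Among 29 with a mean of at least 1 CPM in a control group, 16 were called higher and 0 lower. Irx3 and Irx5, Iroquois factors of the tubule anlage, rose most. Irx3 went from 5.50, 7.07, 6.16 and 11.5 CPM to 59.0, 43.3, 69.5 and 78.7 CPM (log2 fold change 3.04, SE 0.28, adjusted p = 1.51e-05), and Irx5 had a log2 fold change of 4.14 (SE 0.48, adjusted p = 0.000102). The Notch ligands Jag1 and Dll1, active in the renal vesicle, rose too. Jag1 went from 57.8, 53.8, 45.3 and 62.0 CPM to 147, 136, 238 and 186 CPM (log2 fold change 1.69, adjusted p = 0.00019), and Dll1 had a log2 fold change of 1.91 (adjusted p = 0.000263).

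Pax8 and Lhx1, regulators of the pretubular aggregate and renal vesicle named after their values were seen, rose from means of 203 and 10.8 CPM to 664 and 34.6 CPM (log2 fold changes 1.71 and 1.68, adjusted p = 0.00364 and 0.00639). Wnt4, the signal that drives the transition to epithelium, did not move, at 91.6, 108, 132 and 98.9 CPM in control low and 145, 87.2, 70.8 and 122 CPM in mutant low cells (log2 fold change -0.02, SE 0.23, adjusted p = 0.972). Among podocyte genes, 5 of 26 were called higher and 1 lower. Cldn5, a claudin of podocyte junctions, rose from 24.4, 31.8, 36.0 and 27.6 CPM to 90.2, 70.4, 107 and 65.0 CPM (log2 fold change 1.47, adjusted p = 0.000636). Podxl, a sialomucin of the podocyte surface, had a log2 fold change of 2.69 (adjusted p = 0.00289). Nphs1, the gene of the slit diaphragm protein nephrin, was under 0.6 CPM in every low library and was not tested.

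**Figure D3:**
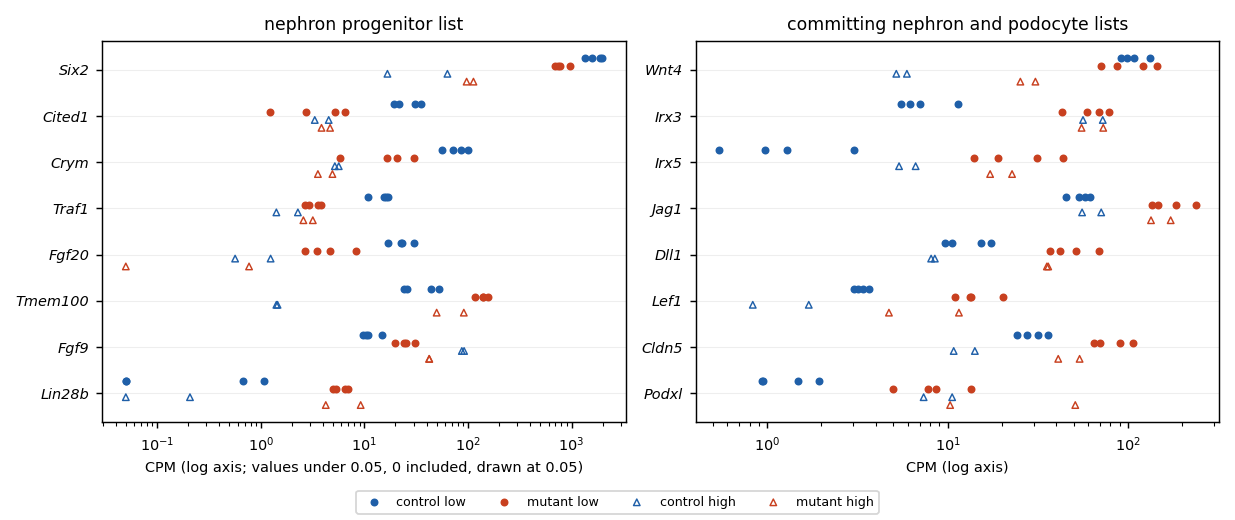
CPM in each library (log axis) of 8 progenitor genes and of 8 genes of committing nephron or podocyte, with filled circles for low and open triangles for high cells, blue for control and red for mutant. Six2, Cited1, Crym, Traf1 and Fgf20 lie lower in mutant low than in all control low libraries, the last 7 genes on the right lie higher, and Wnt4 overlaps.

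Genes of the mature tubule fell, from levels that were already low in control low cells. Of 64 proximal tubule genes tested, 40 were called lower and 0 higher, and their median log2 fold change was -2.59, with 30 called without mutant low library 3. The 15 largest falls included Slc17a1, Slc22a13, Slc22a6, Fbp1, Miox, Cldn2, Slc6a18, Fxyd2, Car15, Mep1a, Slc34a1, Acsm2 and Cyp2j5, picked by these values. All 15 had a mean above 200 CPM in control high cells. Relative to control high cells, the tested proximal tubule genes had a median level of 1.92% in control low and 0.241% in mutant low cells.

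Slc22a6, the basolateral organic anion transporter, fell from 25.6, 50.3, 10.9 and 46.7 CPM to 1.96, 1.52, 0.333 and 0.162 CPM, against 2374 and 1390 CPM in the 2 control high libraries (log2 fold change -5.14, SE 0.68, adjusted p = 0.000600). Miox, the enzyme that opens the inositol ring, fell from 156, 152, 22.7 and 60.5 CPM to 4.73, 3.50, 2.56 and 1.30 CPM, against 4718 and 3886 CPM in control high cells (adjusted p = 0.000405). Slc34a1, the sodium phosphate cotransporter, fell from 86.8, 93.6, 9.84 and 46.3 CPM to 7.62, 2.13, 3.78 and 0.650 CPM (adjusted p = 0.00798). Control low library 3 was the lowest of its group for all 3 genes, and the groups did not overlap.

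Lrp2, the endocytic receptor megalin, fell from 53.4, 58.4, 12.9 and 28.7 CPM to 6.93, 3.66, 3.67 and 3.33 CPM (log2 fold change -3.12, adjusted p = 0.00039). Fxyd2, a regulator of the sodium pump, varied most among controls, at 134, 414, 23.4 and 30.1 CPM, and its call (log2 fold change -4.54, adjusted p = 0.0463) was lost on leaving out any of 9 libraries (up to 0.128). Leaving out control low 3 or 4 or mutant low 1 kept it.

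Loop and distal tubule genes fell as well, with 16 of 26 called lower, 0 higher and a median log2 fold change of -2.77. Slc12a3, the thiazide-sensitive cotransporter of the distal convoluted tubule, fell from 1.40, 5.03, 2.38 and 3.45 CPM to 0.116, 0.305, 0 and 0.325 CPM (log2 fold change -3.90, adjusted p = 0.000452). Calb1, a calcium buffer of distal segments, fell from 20.7, 69.4, 34.5 and 64.6 CPM to 6.70, 4.88, 4.22 and 3.41 CPM (log2 fold change -3.30, adjusted p = 0.000318). Umod, the uromodulin gene of the thick ascending limb named after its values were seen, stood at 53.4, 527, 148 and 146 CPM in control low and at 43.0, 3.35, 16.4 and 11.3 CPM in mutant low cells (adjusted p = 0.0295). Control low library 2 was thus far above the other controls for Umod, and without it the log2 fold change of -3.56 became -2.64 (adjusted p = 0.0553). Without mutant low library 3 or 4 the adjusted p was 0.0887 or 0.0977.

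Markers of tubule cells were also summed per library. All 7 proximal and all 5 loop and distal markers were themselves called lower. Slc34a1, Slc22a6, Lrp2 and Umod, reported above, are among them, so these sums are a description and not separate evidence. The sum of 7 proximal tubule markers lay between 42.7 and 226 CPM in control low libraries, between 6.66 and 21.01 CPM in mutant low libraries, and at 7234 and 9143 CPM in the control high pair. None of these markers was at 0 throughout a group. The 5 loop and distal markers summed to 77.4 to 642 CPM in control low libraries and to 5.64 to 54.4 CPM in mutant low libraries, against 1665 to 2606 CPM in control high. In these bulk samples fewer cells of a type and less RNA per cell cannot be told apart.

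The 8 progenitor markers were detected in every group and summed to between 2452 and 3348 CPM in control low libraries, between 1496 and 1756 CPM in mutant low libraries, and 68.1 and 160 CPM in the control high pair. The progenitor sums were thus higher in low than in high cells. They include Six2, Cited1 and Eya1, reported above, and so are not separate evidence. The sum of the 7 committing markers, which include Jag1, Pax8 and Lhx1, lay between 548 and 919 CPM in control low libraries. It lay between 1505 and 3039 CPM in mutant low libraries. The 5 immune markers reached 12.4 to 18.8 CPM in the control group and 7.80 to 12.5 CPM in the mutant group, with C1qa at 0 in both. Of the 4 erythroid markers 3 had a locus, and their sum was 9.84 to 22.1 CPM against 1.44 to 9.58 CPM. For the 5 endothelial markers it was 11.2 to 17.7 CPM against 5.18 to 11.2 CPM. The part of these cell types in the results was not tested.

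**Figure D4:**
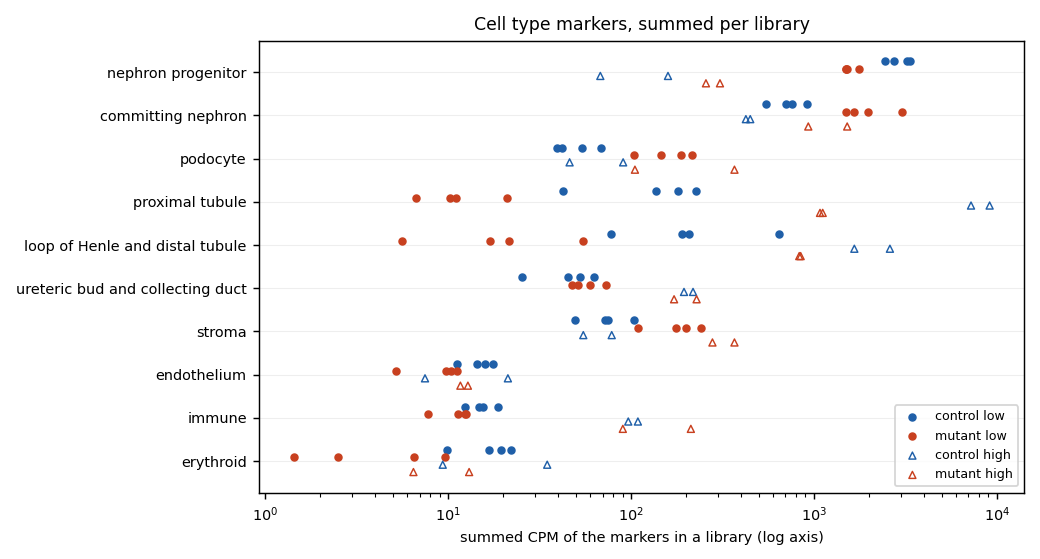
Summed CPM per library (log axis) of 3 to 8 markers of each cell type, with filled circles for low and open triangles for high cells, blue for control and red for mutant. Progenitor markers are highest in low cells and tubule markers in high cells, and in mutant low cells progenitor and tubule sums lie below and committing, podocyte and stromal sums above those of control low cells.

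Stromal genes were higher in part, with 6 of 26 called higher and 1 lower. Lox, the enzyme that crosslinks collagen, rose from 14.7, 10.5, 6.92 and 15.6 CPM to 76.2, 49.5, 107 and 74.0 CPM (log2 fold change 2.68, SE 0.29, adjusted p = 4.88e-05). Pdgfrb, the platelet-derived growth factor receptor of stroma and pericytes, rose from 36.1, 29.9, 31.4 and 55.0 CPM to 125, 71.6, 130 and 112 CPM (log2 fold change 1.52, adjusted p = 0.00273). Foxd1, the defining factor of cortical stroma, had a log2 fold change of 1.69 (adjusted p = 0.0247), which was lost without control low 2, 3 or 4 or mutant low 3 (0.0523 to 0.0813). The chemokine gene Cxcl12 fell by 1.09 on the log2 scale (adjusted p = 0.00795). The 7 stromal markers had a sum between 49.7 and 104 CPM in control low libraries and between 110 and 242 CPM in mutant low libraries, and their part in these rises was not tested. Fn1, which encodes the matrix protein fibronectin, rose by 1.57 on the log2 scale (adjusted p = 0.00127), 1 of 2 calls among 15 mesenchymal genes.

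Epithelial genes split. Of 26, 5 were called higher and 3 lower, and between 1 and 6 were called higher when single libraries were left out, the lowest without control low 1 or mutant low 3. The count was 2 without control low 3 or mutant low 1 or 4, and 3 without control high 2. Cldn7, a tight junction claudin, rose from 26.3, 41.7, 30.8 and 34.7 CPM to 86.2, 65.7, 94.99 and 74.1 CPM (log2 fold change 1.27, adjusted p = 0.00178). Krt7, a keratin of simple epithelia, stood at 7.72, 57.8, 33.8 and 31.2 CPM and at 10.3, 2.59, 5.00 and 4.38 CPM, lower in mutant low cells with ranges that overlapped through control low library 1 (log2 fold change -2.54, adjusted p = 0.0121). Among ureteric bud and collecting duct genes, 2 of 18 were called higher and 3 lower, the latter 1 without control low 2 or 4 or mutant low 3 or 4. The shares of all loci tested were 4.82% higher and 3.21% lower. Gata3, a regulator of the ureteric lineage, rose from 1.99, 3.26, 2.92 and 5.83 CPM to 16.7, 9.75, 19.2 and 19.6 CPM (log2 fold change 2.21, adjusted p = 0.000854), while the water channel Aqp3 of the collecting duct fell by 1.35 on the log2 scale (adjusted p = 0.00786). Ret, the receptor of the ureteric tip, showed no call (adjusted p = 0.521).

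Wnt pathway genes were called higher in 11 and lower in 1 of 39, against 4.82% higher and 3.21% lower of all loci tested. Among 36 with a mean of at least 1 CPM in a control group, 9 were called higher and 1 lower. Rnf43, a Wnt target that removes Frizzled receptors, rose from 2.34, 2.99, 5.62 and 4.19 CPM to 22.6, 13.9, 30.6 and 24.7 CPM (log2 fold change 2.59, SE 0.31, adjusted p = 0.000103). Lef1, the nuclear partner of beta-catenin and a committing nephron gene, rose from 3.39, 3.67, 3.03 and 3.20 CPM to 13.5, 11.0, 13.3 and 20.3 CPM (log2 fold change 2.13, adjusted p = 0.000708). The secreted inhibitor Sfrp2 rose by 1.50 on the log2 scale. Axin2, a widely used readout of canonical Wnt signalling, stood at 9.94, 10.7, 9.94 and 7.47 CPM and at 9.01, 6.71, 9.55 and 6.09 CPM, and these overlapped (log2 fold change -0.28, adjusted p = 0.688). Notch pathway genes were called higher in 5 and lower in 0 of 20, and in 4 and 0 of the 19 at that control level. Jag2 and the target Nrarp rose by 1.63 and 1.14 on the log2 scale.

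In the Fgf, Bmp and Tgf list 6 of 38 were called higher and 5 lower. Nog, the Bmp antagonist noggin, rose from 5.61, 2.85, 4.43 and 5.83 CPM to 14.1, 11.0, 13.8 and 20.7 CPM (log2 fold change 1.66, adjusted p = 0.00178). Fgf1 fell from 44.2, 42.3, 43.5 and 63.2 CPM to 16.5, 14.3, 8.33 and 17.6 CPM (log2 fold change -1.76, adjusted p = 0.000557), and Bmper, a modulator of Bmp ligands, fell by 1.89 on the log2 scale (adjusted p = 0.00351). The rises numbered 3 without control low 2, and the falls 3 without control low 4 or mutant low 1 or 2. This list thus held calls in both directions.

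Imprinted genes were called higher in 5 and lower in 3 of 36, the latter 1 without control low 2 or 4 or mutant low 1. Among 31 with a mean of at least 1 CPM in a control group, 4 were called higher and 3 lower. Of all loci tested, 4.82% were called higher and 3.21% lower. Sgce and Peg10, neighbours expressed from the paternal allele on chromosome 6, rose together. Sgce went from 2.69, 1.22, 1.84 and 1.81 CPM to 36.1, 30.2, 33.7 and 28.9 CPM (chr6:4624349-4697204, mm9, log2 fold change 4.08, SE 0.27, adjusted p = 7.76e-07), and Peg10 from 0, 0.408, 0.432 and 0.410 CPM to 2.77, 5.03, 4.00 and 3.41 CPM (chr6:4697305-4710516, mm9, adjusted p = 0.000385). Plagl1, an imprinted zinc finger factor, rose from 5.38, 5.30, 5.73 and 9.19 CPM to 45.1, 20.6, 36.9 and 24.7 CPM (log2 fold change 2.30, adjusted p = 0.000242). Igf2, the growth factor gene, stood at 1160, 1432, 2096 and 995 CPM and at 767, 1605, 943 and 968 CPM, which overlapped (adjusted p = 0.483).

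Neuronal genes were called higher in 6 and lower in 1 of 24, against 4.82% and 3.21% of all loci tested. Among 20 with a mean of at least 1 CPM in a control group, 5 were called higher and 1 lower. Kcna1, a voltage-gated potassium channel, rose from 0.936, 1.09, 2.59 and 1.56 CPM to 11.6, 10.4, 22.4 and 14.8 CPM (log2 fold change 3.24, SE 0.36, adjusted p = 6.99e-05). Tubb3, the neuronal tubulin, remained low, at 1.16, 0.914, 1.11 and 1.54 CPM in mutant low cells, although it was called higher (adjusted p = 0.00307). Dcx, a microtubule protein of young neurons, fell by 1.32 on the log2 scale (adjusted p = 0.00909). The beta-globin genes Hbb-bs and Hbb-bt fell, Hbb-bs from 94.4, 103, 192 and 179 CPM to 38.9, 26.2, 17.6 and 14.2 CPM (adjusted p = 0.000932), but reads of near-identical beta-globin copies cannot be assigned with certainty. Of 5 erythroid genes tested, 4 were called lower, Hbb-bs and Hbb-bt among them, and a further 9 with a locus were not tested. The other calls, Slc4a1 and Epb42, had means of 1.1 and 1.3 CPM in control low and 196 and 78.9 CPM in control high cells. The alpha-globin gene Hba-a1 did not pass in edgeR's test (log2 fold change -1.89, adjusted p = 0.0961), and its adjusted p was 0.0155 in DESeq2 and 0.0373 in limma-voom. Of 17 dissociation stress genes none was called by edgeR, DESeq2 or limma-voom, with 3 higher and 2 lower at an unadjusted p under 0.05.

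Calls were unevenly spread over gene families. Members silent in control cells could enter the test only by a rise, so for transcription factors the counts are over members with a mean of at least 1 CPM in a control group. All 4 such Gata genes were called higher, as were 2 of 5 T-box genes (1 lower), 3 of 22 forkhead genes and 2 of 9 Sox genes (none lower in either). The median log2 fold change was 0.03 for these forkhead and -0.08 for these Sox genes. Of 2 LIM homeobox genes at that level, 1 was called higher. In contrast, 0 of 317 Zfp zinc finger genes were called higher and 2 lower. Solute carriers had 52 of 303 called lower and 12 higher, cytochrome P450 genes 6 of 26 lower and 2 higher, and Acsm acyl-CoA synthetases 3 of 3 lower. Of 10 laminins with at least 1 CPM in a control group 4 were called higher. Housekeeping families gave few calls, with 0 of 43 subunits of respiratory complex I and 1 of 57 ribosomal protein genes, and among loci with a gene name 4.86% were called higher and 3.22% lower.

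Gata2, a regulator of blood and urogenital development, had even levels within each group, at 1.75, 1.77, 1.41 and 1.64 CPM in control low and 12.8, 12.04, 11.0 and 10.3 CPM in mutant low cells (log2 fold change 2.80, SE 0.24, adjusted p = 6.84e-06). Gata6 and Gata5 had log2 fold changes of 2.36 and 1.39 (adjusted p = 0.00418 and 0.0332). For Gata5 the adjusted p was 0.0587 to 0.0998 without control low 1, 2 or 3 or mutant low 2, 3 or 4. These 3 genes were named after their values were seen.

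**Figure D5:**
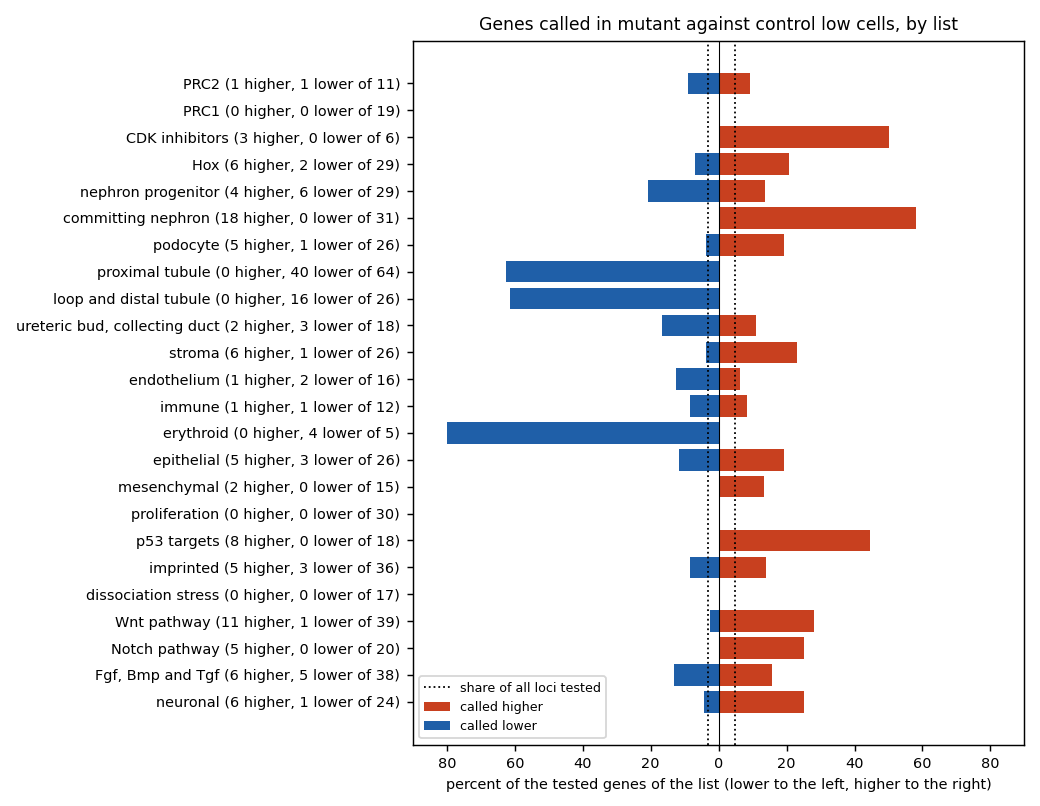
Percent of the tested genes of each list called higher (red, right) or lower (blue, left) in mutant against control low cells, with dotted lines at the shares of all loci tested and the list of regulators of other tissues left out. Among the lists drawn, the bars of committing nephron, CDK inhibitors and p53 targets reach furthest right, and those of erythroid, proximal tubule and loop and distal tubule genes furthest left. The erythroid bar holds only 4 of 5 tested genes and the CDK inhibitor bar 3 of 6. Members silent in control cells could enter these counts only by a rise.

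The mutant effect was also tested for a difference between high and low cells, in which 10.3% of all loci were called. Each control high library shares its description number with a control low library, and each mutant high with a mutant low library. The fit took these libraries as independent, and whether they come from the same animals is not stated. Of the genes named by rule, 29 differed. The mutant effect on Six2 and Cited1 was higher in high cells by 2.49 and 2.91 on the log2 scale, and that on Irx3 was -3.05, its rise being larger in low cells. The high groups hold 2 libraries each, and 17 genes differed without mutant high library 2 and 18 without control high library 2.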

How the data were processed

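RNA of 12 libraries of sorted kidney cells was sequenced, and titles gave the groups and replicate numbers. The deposited table holds expected counts, estimated fragments per transcript on the build mm9, not normalized, and its title names CuffDiff2. Bowtie2, HTSeq and DESeq2 are named in the submitters' processing notes with no role or version. Neither alignment settings nor strand use nor the handling of shared fragments is given in the sources used here, so reads of overlapping antisense genes and of near-identical copies may be misassigned.

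The 55418 transcripts were summed to 26699 loci by overlap on one strand, because fragments were divided between isoforms (99.6% to 99.9% of sums were whole within 0.01), and the sums were rounded. The design assumed a table of genes, and locus sums took its place. Starts are printed as deposited and read as counting from 0. Names were assigned by matching mm9 spans to GENCODE models of GRCm38 on the same chromosome and strand with a shift shared by neighbouring loci, 6976 by equal span, 15451 by one end and 524 by overlap. For loci with an equal span, the other rules gave the same name in 99.2% and 98.4%. Of 764 list genes, 20 had no locus of their own.

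The test was edgeR 4.0.16's quasi-likelihood F test in R 4.3.3 with TMM normalization, filterByExpr, robust dispersions, no covariate, and Benjamini-Hochberg adjustment over 13749 loci, two-sided at 0.05. All 12 libraries entered 1 fit of 4 groups. Promoters were read from RefSeq's table. For a group with no fragment, folds were computed against 3 fragments over the group. Floors and the exact 95% intervals on ratios cover counting error only. On simulated counts for the low comparison over 13412 loci, 19.4% of genes changed by 1 and 83.7% of those changed by 2 on the log2 scale were recovered.

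The members and lists were chosen with earlier results of these data known. Genes named are all of PRC2, the 15 largest rises and 15 largest falls (adjusted p under 0.05, at least 1 on the log2 scale, at least 5 CPM in the higher group, ranges apart), and per list the first gene and up to 4 called genes per direction by adjusted p. Jarid2 was listed at 0 in 1 group and was passed over among the rises. Some genes of this rule are not reported here. Other genes named were chosen after their values were seen. Replicate numbers were not taken to pair the samples, since correlations of same-numbered control and mutant deviations were 0.0671, 0.284, 0.0991 and 0.467. Replicates 1 and 2 of both groups correlated at 0.0671 to 0.363, and replicates 3 and 4 at 0.0991 to 0.467. Across these sets all values were negative, from -0.0749 to -0.419. The sets are the description number classes, so the libraries share structure by class, which the main fit left out. In fits of only the low libraries, 1502 loci were called with the class as a covariate and 932 without it. Alternatives were DESeq2 1.42.0, limma-voom (limma 3.58.1), RLE normalization, other filters and features, a replicate block, leaving out each low library and, added after seeing the data, each high library.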

Additional observations from a re-analysis of the deposited data

Results flagged for a closer look

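In 21 cases the value of 1 library lay far from the other 3 of its group. Chance gives this in about 1 of 20 groups. Both low groups were examined for each of 151 named genes, unless all values of a group were equal. Among PRC2 genes the library was mutant low 2 for Ezh2 (229 CPM), mutant low 3 for Suz12 (27.0 CPM) and Rbbp4 (118 CPM), and control low 1 for Mtf2 (9.47 CPM). Control low 2 stood apart for Vax2 (0.136 CPM), Fndc3c1 (1.50 CPM), Wnt5a (19.98 CPM), Cldn3 (37.9 CPM) and Cntn2 (2.85 CPM). Control low 3 did so for Barx1 (0.108 CPM), Eda2r (7.89 CPM) and Gria3 (4.75 CPM), and control low 4 for Hoxc6 (5.50 CPM), Nphs1 (0.164 CPM), Plagl1 (9.19 CPM) and Fgf1 (63.2 CPM). Control low 1 did so for Kcnj10 (1.05 CPM) and Peg10 (0 CPM), mutant low 1 for Mep1a (3.81 CPM) and Lrp2 (6.93 CPM), and mutant low 3 for Smoc2 (97.8 CPM). For Barx1, Vax2 and Nphs1 the other 3 control low libraries stood at 0, so any fragment gives this flag and it carries no weight.

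For 31 named genes an interaction term of the same edgeR fit gave a different mutant effect in high than in low cells, and 29 of them were named by rule. Differences are high minus low on the log2 scale. The fit did not pair high and low libraries that share a description number. Progenitor genes had a higher mutant effect in high cells, with 2.49 for Six2, 2.91 for Cited1, 2.86 for Eya1, 4.21 for Osr1, 2.80 for Traf1 and 3.68 for Tmem100, while Fgf9 had -2.21. Polycomb genes gave 1.48 for Ezh2, 1.23 for Ezh1 and 2.998 for Phf19. The value of -13.64 for Jarid2 rests on its listed 0 in control low cells and has no meaning as a size. Committing and tubule genes gave -3.05 for Irx3, 2.35 for Wnt4 and 2.78 for Cldn2. Signalling genes gave 1.97 for Sfrp2, 2.34 for Rspo3, 2.66 for Fgf18 and 4.70 for Bmper. Markers of other cell types gave -2.01 for Gata3, 3.81 for Ret, 2.48 for Cxcl12, 1.82 for Cd14, 2.92 for Cd74, 2.21 for Hbb-bt, -1.67 for Cldn7 and 4.43 for Dcx. The remaining values were -3.70 for Prss16, 4.55 for Hoxc6, 6.31 for Eda2r, -2.17 for Sgce and 1.24 for Grb10.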

How the results depend on the processing

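The main fit called 1104 loci (663 higher, 441 lower). A separate fit with each transcript as a feature called 427 transcripts (292 and 135), whose overlap with these loci was not counted. A test against a log2 fold change of 1 called 346 loci (225 and 121). Libraries numbered up to 7 gave 726, of which 268 were lower, and a fit of only the 8 low libraries gave 282 lower. Leaving out single libraries gave 774 to 1149 calls, 500 to 722 higher and 263 to 427 lower, the lowest without mutant low 4 (774 and 263) and control low 1 (500). DESeq2 gave 1439, limma-voom 1062, RLE normalization 1110, no filter 1099, at least 5 CPM in 4 samples 864 and the number class as a covariate 1502. The fit with a replicate block gave 1059 (716 and 343), and samples did not always correlate best with their own number. The 29 differences between high and low cells became 17 to 30 on leaving out single libraries. Over 24 settings, 62 of 128 called named genes stayed past the threshold and 0 changed sign. Causes were not tested. In simulation, 19.4% of changes of 1 on the log2 scale were recovered.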

Other observations

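Families of cell contact and guidance gave different counts in mutant low cells, chosen here after their values were seen. Counts are over members with a mean of at least 1 CPM in a control group, and 4.82% of all loci tested were called higher and 3.21% lower. Of 19 ephrins and Eph receptors, which guide cell sorting and axons, 5 were called higher and 0 lower, with a median log2 fold change of 0.59. Of 7 protocadherins, adhesion proteins of the nervous system, 4 were called higher and 0 lower. Semaphorins, which repel axons, gave 2 higher and 2 lower of 16, and plexins, their receptors, 1 higher and 0 lower of 8. Cadherins gave 1 higher and 2 lower of 12, and integrins, receptors of the matrix, 1 higher and 2 lower of 19. Of 9 glutamate receptor genes 2 were called higher and 0 lower, and of 45 potassium channel genes 5 were higher and 5 lower. Collagens gave 2 higher and 0 lower of 34.

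Over all tested members, UDP glucuronosyltransferases, which conjugate drugs and bilirubin, gave 3 lower and 0 higher of 7. The 9 genes of the minichromosome maintenance family, which load and drive the replicative helicase, gave 0 calls in edgeR, DESeq2 or limma-voom, and 0 at an unadjusted p under 0.05 in edgeR's test. The 21 subunits of the vacuolar proton pump and 10 matrix metalloproteases likewise gave 0 calls in these 3 tools, with 6 lower among the pump subunits, and 1 higher and 1 lower among the metalloproteases, at an unadjusted p under 0.05 in edgeR's test.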
